A study of Mus musculus with 25 samples.

Results

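The 36 genes described here make cholesterol and fatty acids, control that synthesis, or carry sterol out of the cell. They were taken by symbol from a list, and all 36 were found among the 24421 genes of the authors' deposited tables. The list holds 6 genes of the mevalonate steps, 11 genes of the steps to squalene and from squalene to cholesterol, 5 genes of SREBP control, 4 genes of sterol transport, turnover and export, 4 genes of fatty acid synthesis and 6 genes of fatty acid elongation and desaturation. The first 2 sets are called the sterol synthesis arm (17 genes) and the last 2 the fatty acid arm (10 genes).

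Poly(A) RNA was sequenced from the hypothalamus, a brain region that controls feeding and energy use, of wild-type C57BL/6J mice aged 3 months. Dams ate a hypercaloric diet (HCD; TD.04059.PWD, a high-sucrose feed with 52% fat) or a regular chow diet (RD) for 1 month before mating and through pregnancy and lactation, and offspring were put on HCD or RD at weaning. The 25 samples form 8 groups, written here as maternal diet and then offspring diet: HCD-HCD, HCD-RD, RD-HCD and RD-RD, each in males and in females, with 4 samples of RD-RD males and 3 samples in each other group. The study's title asks how a maternal Western-type diet programs male and female offspring, and each of the 4 comparisons sets offspring of HCD dams against offspring of RD dams within a sex and a postnatal diet.

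Cells build cholesterol from acetyl-CoA through mevalonate and squalene. The transcription factors SREBP-1 and SREBP-2 switch on the genes of sterol and fatty acid synthesis. SCAP escorts them to the Golgi for activation when sterol is low, and the INSIG proteins hold them back when sterol is high. The adult brain makes almost all of its own cholesterol, since plasma lipoproteins do not cross the blood-brain barrier. Oligodendrocytes use it for myelin, astrocytes pass it to neurons on apolipoprotein E, and neurons clear it as 24-hydroxycholesterol.

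All fold changes are those of the authors' deposited tables, as log2 of HCD dams over RD dams, so that a positive value means higher in offspring of HCD dams. For HCD-weaned offspring the groups of RD dams are named as the control in the labels. For RD-weaned offspring the reading rests on the order in which the labels name the groups, and a wrong reading would turn every sign in that table. The library columns of the deposited files are numbered in a way that matches no sample label, so values per sample, group means and depth per sample are not analysed here. The depth behind a value is given as the table's mean normalized count, which summed to 26951335 in males and 22739667 in females after HCD weaning, and 15402649 in males and 23564269 in females after RD weaning. In bulk tissue, fewer cells of a type and less RNA per cell cannot be told apart.

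The labelled tissue was checked against 10 hypothalamic marker genes. Their mean levels summed to 233 (HCD-weaned males), 257 (HCD-weaned females), 154 (RD-weaned males) and 455 (RD-weaned females) CPM, counted here as each gene's share of its table's summed mean normalized counts. Agrp, a defining gene of arcuate feeding neurons, was under 1 CPM in all 4 tables, at 0.53, 0.415, 0.0999 and 0.596 in the same order. Other markers of the list were higher. In HCD-weaned males Pmch was at 120, Avp at 69.2, Oxt at 16.8, Hcrt at 15.4, Pomc at 5.37 and Nkx2-1 at 3.00 CPM. There Sim1, Otp and Fezf1 were also under 1 CPM. Markers of neighbouring brain were present in every table, with sums of 578, 464, 538 and 787 CPM for 8 telencephalic genes and 859, 929, 1018 and 621 CPM for 6 thalamic genes. Sets of marker genes also had their own fold changes between maternal diets, which are given beside the results they accompany.

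Proximal promoters, from 250 bases before to 50 bases after the first transcribed base, were available in RefSeq (GRCm38.p6) for 29 of the 36 genes. A classical sterol regulatory element core, TCACCCCAC on either strand, lay in 0.551% of all 32851 promoters and, among the 29 genes, only in that of Hmgcs1, which encodes the cytosolic HMG-CoA synthase. The same core with 1 free base, TCACNCCAC, which includes every match of the first, was in 1.24% of all promoters and again only in Hmgcs1. The CCAAT box, the letters bound by NF-Y, a cofactor of SREBP, was in 37.4% of all promoters. At least 1 promoter held it in 41.1% of all 27025 genes, in 14 of 14 matched genes of the sterol synthesis arm and in 4 of 7 matched genes of the fatty acid arm, which were Acly, Elovl5, Fasn and Me1. In the sterol synthesis arm 9 genes had 2 or more CCAAT boxes, against 13.3% of all 27025 genes with as many in at least 1 promoter. The E-box CACGTG was in at least 1 promoter of 8.09% of all genes and of 7 of the 29 genes. Of the 40 promoters of the 29 genes, 34 had the bases after the start inside a GENCODE M21 transcript of the gene. The only window of Acaca, which held no CCAAT box, starts at 84195188 on chromosome 11, inside a gene that GENCODE M21 draws from 84129672 to 84401651. These matches are letters in a window and were not tested as binding sites.

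The 4 promoters below carry the sterol element or repeated CCAAT boxes, 3 of them from the sterol synthesis arm and 1 from the fatty acid arm. Hmgcs1 (chr13:119690101-119690400, plus strand) has the sterol element at -137 and 4 CCAAT boxes, counted from 0 at the first transcribed base, and Mvk (chr5:114444019-114444318, plus strand) has 5 CCAAT boxes. Ebp (chrX:8193463-8193762, minus strand) has 2 CCAAT boxes and Fasn (chr11:120824498-120824797, minus strand) has 3. Of the 3 in Fasn, 2 overlap in the stretch CCAATTGG, 1 on each strand. The window of Fads2 held none of the motifs, and its RefSeq start lies inside the gene as GENCODE M21 draws it. Each is written 5′ to 3′ on the gene's strand, and capitals mark TCACCCCAC and CCAAT, with CCAAT on the other strand written as ATTGG.
Hmgcs1: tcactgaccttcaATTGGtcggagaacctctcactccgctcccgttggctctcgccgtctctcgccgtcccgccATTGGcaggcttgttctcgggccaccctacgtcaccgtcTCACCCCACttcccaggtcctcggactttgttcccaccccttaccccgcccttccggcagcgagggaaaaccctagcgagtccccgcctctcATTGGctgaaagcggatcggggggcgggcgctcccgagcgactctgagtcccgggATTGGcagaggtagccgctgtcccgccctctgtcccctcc
Mvk: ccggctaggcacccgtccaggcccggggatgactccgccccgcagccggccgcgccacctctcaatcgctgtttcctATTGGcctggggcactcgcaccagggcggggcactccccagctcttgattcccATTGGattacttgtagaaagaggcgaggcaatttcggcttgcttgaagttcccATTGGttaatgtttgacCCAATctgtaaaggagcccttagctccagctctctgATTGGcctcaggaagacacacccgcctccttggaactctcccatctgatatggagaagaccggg
Ebp: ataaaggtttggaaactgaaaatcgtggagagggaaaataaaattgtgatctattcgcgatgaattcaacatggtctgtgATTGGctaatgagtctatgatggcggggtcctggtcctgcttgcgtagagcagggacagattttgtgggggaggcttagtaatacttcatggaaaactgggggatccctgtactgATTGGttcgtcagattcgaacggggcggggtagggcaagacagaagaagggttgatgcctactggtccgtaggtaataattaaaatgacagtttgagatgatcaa
Fasn: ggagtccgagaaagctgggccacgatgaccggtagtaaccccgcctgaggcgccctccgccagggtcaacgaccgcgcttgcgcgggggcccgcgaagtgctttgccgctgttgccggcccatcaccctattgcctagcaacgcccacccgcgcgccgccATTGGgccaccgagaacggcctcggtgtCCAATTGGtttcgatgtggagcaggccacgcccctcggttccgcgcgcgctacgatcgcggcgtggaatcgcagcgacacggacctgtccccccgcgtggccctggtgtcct

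None of the 36 genes passed the authors' test in any of the 4 comparisons (authors' DESeq Wald test, adjusted p under 0.05). In HCD-weaned males 0 of 36 were called, against 0.163% of 15384 genes tested, and in HCD-weaned females 0 of 36, against 1.52% of 15043 genes. In RD-weaned males 0 of the 34 genes with an adjusted p were called, against 0.0851% of 12920 genes, and in RD-weaned females 0 of 35, against 0.346% of 15028 genes. The authors' deposited table of RD-weaned males gives no p for Tm7sf2 and Apoe, and that of RD-weaned females gives none for Scd2. The smallest adjusted p of a member was 0.509 in males and 0.0954 in females after HCD weaning, and 1.00 in males and 0.214 in females after RD weaning, from the authors' DESeq tables.

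At an unadjusted p under 0.05 in the authors' DESeq tables, 12 of 36 genes passed in HCD-weaned females, where 13.3% of all genes tested did. Of these 12, 8 were positive (Mvk, Pmvk, Ebp, Insig2, Srebf1, Scap, Cyp46a1 and Apoe) and 4 were negative (Lss, Abca1, Scd1 and Fads2). In HCD-weaned males 3 of 36 passed (Ebp, Mvd and Tm7sf2, all positive), where 8.14% of all genes did. RD-weaned males had 1 of 34 (Mvk, negative), where 4.3% of all genes did, and RD-weaned females had 2 of 35 (Fads1 and Fads2, both negative), where 6.16% of all genes did. For scale, the smallest absolute log2 fold change of any called gene was 1.06 in males and 0.58 in females after HCD weaning, and 0.66 in males and 0.73 in females after RD weaning in the authors' deposited tables.

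**Figure D1:**
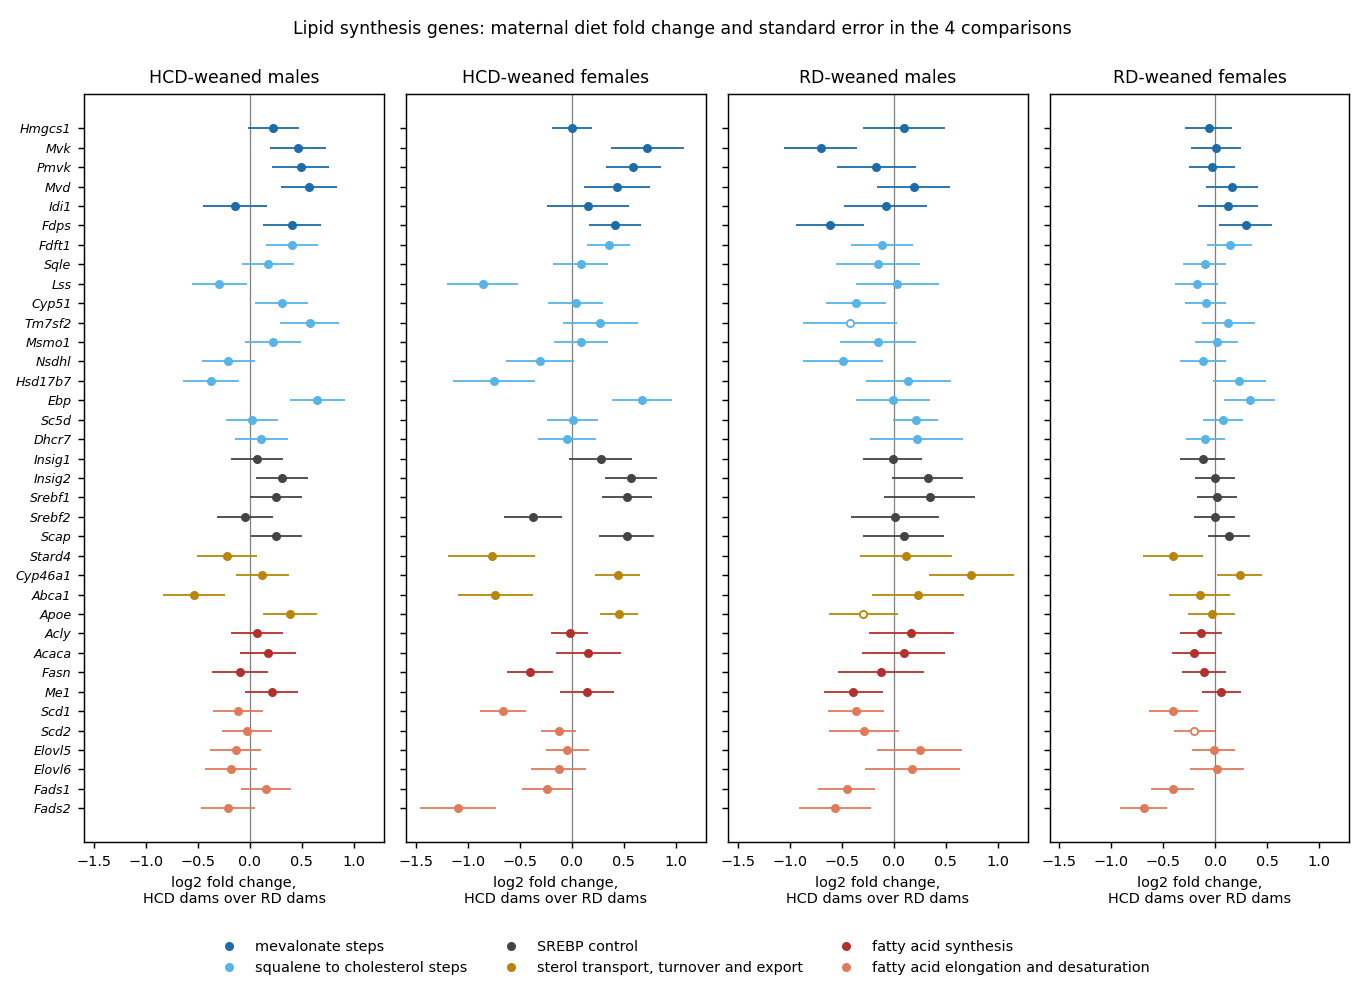
Log2 fold change of each of the 36 genes (rows, coloured by role) in the 4 comparisons (panels), from the authors' deposited tables; points are fold changes of HCD dams over RD dams, bars are standard errors, and open points have no p in that table. Among females Fads2 lies at -1.09 after HCD weaning and -0.69 after RD weaning, and most mevalonate genes lie right of 0 in both HCD-weaned panels.

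The mevalonate steps had the highest median of the 6 sets of genes in HCD-weaned males, and all their members were positive in HCD-weaned females. In males 5 of 6 genes were positive with a median log2 fold change of 0.44, and in females 6 of 6 with a median of 0.43, where the medians of all genes tested were -0.0091 and 0.04. None passed the test in either sex. Mvd, which encodes the decarboxylase that makes isopentenyl diphosphate, stood at 0.57 ± 0.27 (SE) in HCD-weaned males in the authors' deposited DESeq table (adjusted p = 0.572), a 1.48-fold difference. It was also positive in HCD-weaned females (0.44 ± 0.32), RD-weaned males (0.19 ± 0.35) and RD-weaned females (0.16 ± 0.25) in the authors' deposited tables. Pmvk, which adds the second phosphate to mevalonate, stood at 0.49 ± 0.28 in HCD-weaned males and 0.59 ± 0.26 in HCD-weaned females (SE, authors' deposited tables). Hmgcs1, the gene with the sterol element, stood at 0.22 ± 0.25 in HCD-weaned males and 0.0046 ± 0.19 in HCD-weaned females (SE, authors' deposited tables). Idi1, the isomerase gene, had few counts, with a mean level between 2.03 and 4.30 CPM over the 4 tables.

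In RD-weaned males the mevalonate genes lay on the other side of 0, with 4 of 6 negative and a median of -0.12. Mvk, which encodes mevalonate kinase and lies on chromosome 5 (114444269 to 114460591), stood at -0.70 ± 0.35 there (SE; adjusted p = 1.00 in the authors' deposited DESeq table). The same gene stood at 0.46 ± 0.27 in males and 0.73 ± 0.35 in females after HCD weaning and at 0.0041 ± 0.24 in RD-weaned females (SE, authors' deposited tables). Fdps, which makes farnesyl diphosphate and lies on chromosome 3 (89093588 to 89101959), stood at -0.61 ± 0.32 in RD-weaned males (SE; adjusted p = 1.00 in the authors' deposited DESeq table). Elsewhere Fdps was at 0.41 ± 0.28 in males and 0.42 ± 0.25 in females after HCD weaning and at 0.29 ± 0.26 in RD-weaned females (SE, authors' deposited tables). Of the exonic bases of Fdps, 26.7% overlap Gm43738 on the same strand in GENCODE M21, so reads of the pair could be shared.

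The 11 genes of the squalene and later steps spread widely on both sides of 0. Their median was 0.17 in males (8 positive) and 0.04 in females (7 positive) after HCD weaning, and -0.11 in males (4 positive) and 0.01 in females (6 positive) after RD weaning, and none passed the test. Ebp, the sterol isomerase gene on the X chromosome (8185329 to 8193512), had the largest absolute value of the 36 genes in HCD-weaned males, 0.65 ± 0.26 (SE; adjusted p = 0.509 in the authors' deposited DESeq table), a 1.57-fold difference. Its value in HCD-weaned females was of like size, 0.68 ± 0.29, while it stood at -0.0090 ± 0.36 in males and 0.33 ± 0.24 in females after RD weaning (SE, authors' deposited tables). Tm7sf2, a sterol reductase gene on chromosome 19 (6062821 to 6068373), stood at 0.57 ± 0.29 in HCD-weaned males (SE; adjusted p = 0.604 in the authors' deposited DESeq table). Its exons overlap those of Vps51 on the same strand over 12.1% of their bases.

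Lss and Hsd17b7 lay on the other side of 0 in HCD-weaned offspring. Lss encodes lanosterol synthase, which closes the sterol rings, and lies on chromosome 10 (76531588 to 76557138). It stood at -0.86 ± 0.34 in HCD-weaned females (SE; adjusted p = 0.2003 in the authors' deposited DESeq table), a 1.81-fold difference. The other values of Lss were -0.29 ± 0.27 in HCD-weaned males, and 0.04 ± 0.40 in males and -0.18 ± 0.21 in females after RD weaning (SE, authors' deposited tables). Hsd17b7, the 3-ketosteroid reductase gene of the pathway, stood at -0.37 ± 0.27 in HCD-weaned males and -0.75 ± 0.39 in HCD-weaned females, against 0.14 ± 0.41 in males and 0.23 ± 0.26 in females after RD weaning (SE, authors' deposited tables). Nsdhl, which removes the methyl groups at carbon 4 with its partner enzymes, was negative in all 4 authors' deposited tables, between -0.49 and -0.12, with no unadjusted p under 0.05. Sc5d, a sterol desaturase gene, was positive in all 4 authors' deposited tables but never above 0.21.

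The control genes of SREBP had a median of 0.53 in HCD-weaned females, the highest of the 6 sets there, and of 0.25 in HCD-weaned males, with 4 of 5 genes positive in each. In RD-weaned offspring the medians were 0.10 in males and -0.0041 in females. Insig2, which encodes one of the ER anchors, stood at 0.57 ± 0.25 in HCD-weaned females, Srebf1, which encodes SREBP-1, at 0.53 ± 0.24 and Scap at 0.53 ± 0.27 (SE, authors' deposited tables). Their adjusted p values in the authors' deposited DESeq table were 0.265, 0.285 and 0.366, so none passed the test. Srebf2, which encodes the SREBP that favours sterol genes, was the exception in both HCD-weaned tables of the authors, with -0.05 ± 0.27 in males and -0.37 ± 0.28 in females (SE). Srebf1 and Scap were positive in all 4 authors' deposited tables. Exons of Scap overlap genes on the opposite strand over 13.2% of their bases, and whether the authors' counting used strand is not given in the sources used here.

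**Figure D2:**
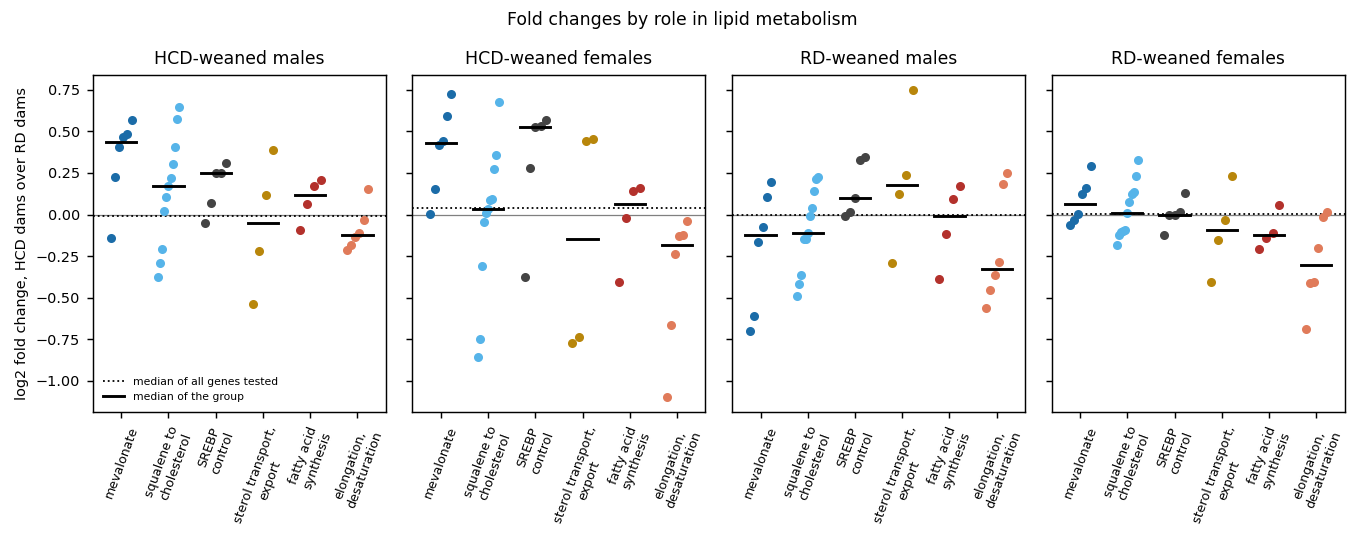
Log2 fold change of HCD dams over RD dams for each gene (points) by role (columns) in the 4 comparisons (panels), from the authors' deposited tables; the thick line is the median of the set and the dotted line the median of all genes tested. The mevalonate and SREBP control medians lie at 0.44 and 0.25 in HCD-weaned males and 0.43 and 0.53 in HCD-weaned females, and the elongation and desaturation median is below 0 in all 4 panels.

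Genes of sterol transport, turnover and export did not share a sign. Apoe, the main sterol carrier of the brain, stood at 0.39 ± 0.26 in HCD-weaned males and 0.45 ± 0.18 in HCD-weaned females, and Abca1, the pump that loads sterol onto it, at -0.54 ± 0.30 and -0.74 ± 0.36 in the same order (SE, authors' deposited tables). The pair thus differed in sign in both HCD-weaned tables. Their longest transcripts differ in length, 1408 bases for Apoe and 10262 bases for Abca1. Among all genes tested in HCD-weaned males, those with a median length of 1563 bases had a median of 0.21, and those of 10049 bases -0.42. In HCD-weaned females genes of 1569 bases had 0.22 and those of 10099 bases -0.35. The part of length in the values of the pair was not tested. Stard4, a sterol transfer protein gene, stood at -0.77 ± 0.42 in HCD-weaned females (SE; adjusted p = 0.422) and -0.41 ± 0.29 in RD-weaned females (SE; adjusted p = 1.00 in the authors' deposited DESeq tables). Stard4 had a mean level of at most 11.9 CPM in any table. Cyp46a1, the neuronal cholesterol 24-hydroxylase gene on chromosome 12 (108334381 to 108362234), was positive in all 4 comparisons. It had the largest absolute value of the 36 genes in RD-weaned males, 0.75 ± 0.41 (SE; adjusted p = 1.00 in the authors' deposited DESeq table), and stood at 0.12 ± 0.25 in males and 0.44 ± 0.21 in females after HCD weaning and 0.23 ± 0.22 in RD-weaned females. In RD-weaned males the neuronal vesicle gene Snap25 was called at 0.88 in the authors' deposited DESeq table (adjusted p = 2.31e-06), while 6 of the 10 neuron markers were positive with a median of 0.09. In HCD-weaned females the neuronal tubulin gene Tubb3 was called at 0.83 (adjusted p = 0.00257 in the authors' deposited DESeq table). There 5 of the 10 neuron markers were positive with a median of -0.0002, and 5 had an unadjusted p under 0.05, 3 of them positive and 2 negative. Of all genes tested there, 13.3% had such a p. Neuron markers had 5 of 10 positive in HCD-weaned males (median -0.05) and 5 of 10 in RD-weaned females (median 0.07). The part of neuron content in the values of Cyp46a1 was not tested.

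The 4 genes of fatty acid synthesis lay near 0, with medians of 0.12 in males and 0.06 in females after HCD weaning, and -0.01 in males and -0.13 in females after RD weaning. Fasn, the fatty acid synthase gene, was negative in all 4 authors' deposited tables, with its lowest value in HCD-weaned females (-0.40 ± 0.22, SE). Acly, which makes cytosolic acetyl-CoA, and Acaca, which makes malonyl-CoA, stayed between -0.21 and 0.17 in the authors' deposited tables. Me1, the malic enzyme gene that supplies NADPH, stood at -0.39 ± 0.28 in RD-weaned males and between 0.06 and 0.21 in the other authors' deposited tables (SE).

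Elongation and desaturation genes had negative medians in all 4 comparisons, -0.12 in males and -0.18 in females after HCD weaning, and -0.32 in males and -0.30 in females after RD weaning, with 5, 6, 4 and 5 of 6 genes negative in that order. Fads2, the delta-6 desaturase gene that starts the making of long polyunsaturated fatty acids, lies on chromosome 19 (10062765 to 10101746). It stood at -1.09 ± 0.37 in HCD-weaned females (SE; adjusted p = 0.101), a 2.14-fold difference with a 95% interval of -1.82 to -0.37, and at -0.69 ± 0.23 in RD-weaned females (SE; adjusted p = 0.214), both in the authors' deposited DESeq tables. These were the largest absolute values of the 36 genes in both female tables. In males Fads2 stood at -0.21 ± 0.26 after HCD weaning and -0.56 ± 0.34 after RD weaning (SE, authors' deposited tables), so that all 4 values were below 0 and no adjusted p was under 0.05.

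Fads1, the delta-5 desaturase gene, lies beside Fads2 on chromosome 19 (10182888 to 10196877). It stood at -0.41 ± 0.20 in RD-weaned females (SE; adjusted p = 0.782 in the authors' deposited DESeq table). Its value was 0.16 ± 0.24 in males and -0.24 ± 0.24 in females after HCD weaning, and -0.45 ± 0.27 in RD-weaned males (SE, authors' deposited tables). Scd1 makes monounsaturated fatty acids and lies further along chromosome 19 (44394455 to 44407879). Its value in HCD-weaned females was -0.66 ± 0.22 (SE), a 1.58-fold difference with the smallest adjusted p of any member in any comparison, 0.0954 in the authors' deposited DESeq table. Scd1 was also negative in HCD-weaned males (-0.11 ± 0.24), RD-weaned males (-0.37 ± 0.27) and RD-weaned females (-0.40 ± 0.23) in the authors' deposited tables (SE). Scd2, its close paralog, stood between -0.28 and -0.03 in the authors' deposited tables. Reads could be split between the pair, and how the authors counted such reads is not given in the sources used here. Elovl5 and Elovl6, the elongase genes, stayed between -0.18 and 0.25 in the authors' deposited tables.

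Fold changes of marker genes of glia and of brain regions are given here beside those of the members. In HCD-weaned females 6 of 10 astrocyte markers were negative with a median of -0.28, and the water channel gene Aqp4 was called at -1.25 (adjusted p = 0.0229 in the authors' deposited DESeq table). Oligodendrocyte markers had 7 of 10 negative there with a median of -0.14, and Ermn was called at -0.81 (adjusted p = 0.0469 in the authors' deposited DESeq table). Astrocyte markers were negative in 5 of 10 genes in HCD-weaned males (median 0.0019), and after RD weaning in 9 of 10 in males (median -0.24) and in 9 of 10 in females (median -0.18). Oligodendrocyte markers had 8 of 10 positive in RD-weaned females (median 0.24), 7 of 10 in HCD-weaned males (median 0.14) and 5 of 10 in RD-weaned males (median -0.02). Microglia markers had 4 of 8 positive in males (median 0.0084) and 6 of 8 in females (median 0.34) after HCD weaning, and 3 of 8 in males (median -0.03) and 8 of 8 in females (median 0.33) after RD weaning. In RD-weaned females 8 of 8 telencephalic markers were positive (median 0.64) and 6 of 6 thalamic markers negative (median -0.60), of which Calb2 was called at -1.32 (adjusted p = 0.00473 in the authors' deposited DESeq table). In RD-weaned males 7 of 8 telencephalic markers (median 0.25) and 6 of 6 thalamic markers (median 0.41) were positive. After HCD weaning the telencephalic markers had 2 of 8 positive in males (median -0.30) and 6 of 8 in females (median 0.17), and the thalamic markers 4 of 6 in each sex (medians 0.13 in males and 0.08 in females). The part of these cell types and regions in the values of Fads2, Fads1, Scd1, Abca1, Mvk and Fdps was not tested. In HCD-weaned males, where Ebp, Tm7sf2 and Mvd had the highest fold changes, all 10 hypothalamic markers were negative with a median of -1.29. The 5 called there, where 0.163% of all genes tested were, were the neuropeptide genes Oxt (-2.27), Pmch (-1.93) and Hcrt (-1.73) and the transcription factor genes Fezf1 (-1.55) and Sim1 (-1.37) in the authors' deposited table, and their part in those values was not tested either. Hypothalamic markers were negative in 8 of 10 genes in HCD-weaned females (median -0.17). After RD weaning they were negative in 7 of 10 in males (median -0.12) and 9 of 10 in females (median -0.26).

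The sterol synthesis and fatty acid arms differed in sign of their medians in HCD-weaned offspring. Among males the sterol synthesis arm had 13 of 17 genes positive with a median of 0.22, and the fatty acid arm 4 of 10 with a median of -0.06. Among females the counts were 13 of 17 with a median of 0.09 and 2 of 10 with a median of -0.13. Of all genes tested, 48.9% were positive in HCD-weaned males and 54.4% in HCD-weaned females. Among RD-weaned males both arms had medians below 0, -0.11 with 6 of 17 positive and -0.20 with 4 of 10, and in RD-weaned females the medians were 0.01 with 10 of 17 positive and -0.17 with 2 of 10, where 50% and 50.9% of all genes were positive. Over all 4 comparisons 9 of the 33 members with 4 adjusted p values kept a single sign, or 10 members with Scd2 counted, and 24.5% of 12604 genes with 4 adjusted p values did so. The members with a single sign were Mvd, Sc5d, Srebf1, Scap and Cyp46a1 on the positive side and Nsdhl, Fasn, Scd1, Scd2 and Fads2 on the negative side. Which members these are depends on the reading of direction in the RD-weaned tables. With those tables turned, a single sign was found in 6 of the 33 members (Pmvk, Sqle, Cyp51, Hsd17b7, Insig1 and Elovl6), where 13.8% of all genes had one.

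Fold changes followed transcript length across the transcriptome, and the arms differ in length. Spearman's rho between the Wald statistic and the length of the longest GENCODE transcript, across genes that are not independent replicates, was -0.545 in males and -0.44 in females after HCD weaning, and 0.08 in males and -0.22 in females after RD weaning. The median length was 3027 bases in the sterol synthesis arm and 4629 bases in the fatty acid arm. With the trend over length and GC content removed, the median of the sterol synthesis arm was 0.26 in HCD-weaned males and 0.14 in HCD-weaned females, and that of the fatty acid arm was 0.11 and -0.06. The fatty acid arm of HCD-weaned males thus changed sign, with 8 of 10 genes above 0, and the arms then shared a sign in these males. The median of the elongation and desaturation genes was then 0.01 in these males, -0.16 in HCD-weaned females, and -0.31 in males and -0.37 in females after RD weaning (females without Scd2, which has no p). The mevalonate steps then had a median of 0.31 in HCD-weaned males and 0.23 in HCD-weaned females, against 0.44 and 0.43 before, and Mvd stood at 0.35 in these males, against 0.57 before. Ebp and Tm7sf2 then stood at 0.49 and 0.54 in HCD-weaned males, against 0.65 and 0.57 before. In HCD-weaned females Lss, Fads2 and Stard4 then stood at -0.60, -1.18 and -0.59, against -0.86, -1.09 and -0.77 before.

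**Figure D3:**
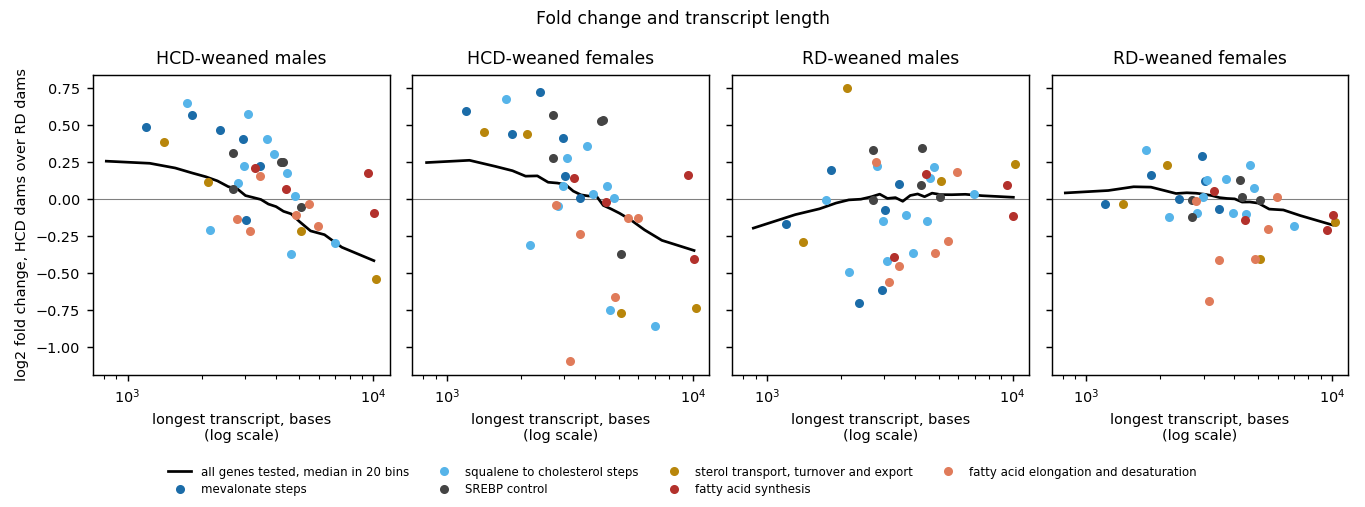
Log2 fold change of HCD dams over RD dams against the longest transcript in bases (log scale) for the 36 genes (points, coloured by role) in the 4 comparisons (panels); the line is the median of all genes tested in 20 bins of length. In HCD-weaned males and females the line falls with length, and Fads2 in HCD-weaned females lies well under it at -1.09.

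Maternal diet values were then compared between postnatal diets, as the fold change after HCD weaning minus that after RD weaning. No member passed the test of the difference (normal test on the authors' fold changes and standard errors, Benjamini-Hochberg over all genes): 0 of 34 in males, against 0.00775% of 12910 genes, and 0 of 35 in females, against 0.00685% of 14603 genes. At an unadjusted p under 0.05, 2 of 34 members passed in males, where 3.84% of all genes did, and 1 of 35 in females, where 5% of all genes did. In males the 2 were Mvk and Fdps. Mvk had a difference of 1.17 ± 0.44 (SE; 95% interval 0.30 to 2.03; Benjamini-Hochberg adjusted p = 0.978 from the authors' DESeq values). Fdps had a difference of 1.02 ± 0.43 (SE; 95% interval 0.18 to 1.86; adjusted p = 0.978 from the authors' DESeq values). Both genes were positive after HCD weaning and negative after RD weaning. In females it was Hsd17b7, with -0.98 ± 0.47 (SE; 95% interval -1.90 to -0.06; Benjamini-Hochberg adjusted p = 0.989 from the authors' DESeq values). For Fads2 the difference was 0.35 (95% interval -0.50 to 1.19) in males and -0.41 (95% interval -1.25 to 0.44) in females, so a difference of over 1 log2 unit in either sex lies within the intervals.

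By arm, 12 of 17 sterol synthesis genes had a positive difference in males with a median of 0.37, and 13 of 17 in females with a median of 0.13. The fatty acid arm had 7 of 10 with a median of 0.17 in males and 5 of 10 with a median of 0.02 in females. Medians over all genes were -0.0074 in males and 0.02 in females. In males 13 of the 36 genes were positive after HCD weaning and negative after RD weaning, a count that was not made over all genes. These signs and counts depend on the reading of direction in the RD-weaned tables. With those tables turned, the sterol synthesis arm had 10 of 17 positive differences in each sex, with medians of 0.07 in males and 0.10 in females. The fatty acid arm then had 4 of 10 positive in males (median -0.20) and 1 of 10 in females (median -0.25). Turned medians over all genes were -0.03 in males and 0.03 in females. In males 0 of 34 members then had an unadjusted p under 0.05, where 5.59% of all genes did, and the differences of Mvk and Fdps were -0.24 and -0.20. In females 9 of 35 then had one, where 14.6% of all genes did. The turned female difference of Fads2 was -1.78 and passed the test (Benjamini-Hochberg adjusted p = 0.0118 from the authors' DESeq values), along with 1.27% of 14603 genes.

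**Figure D4:**
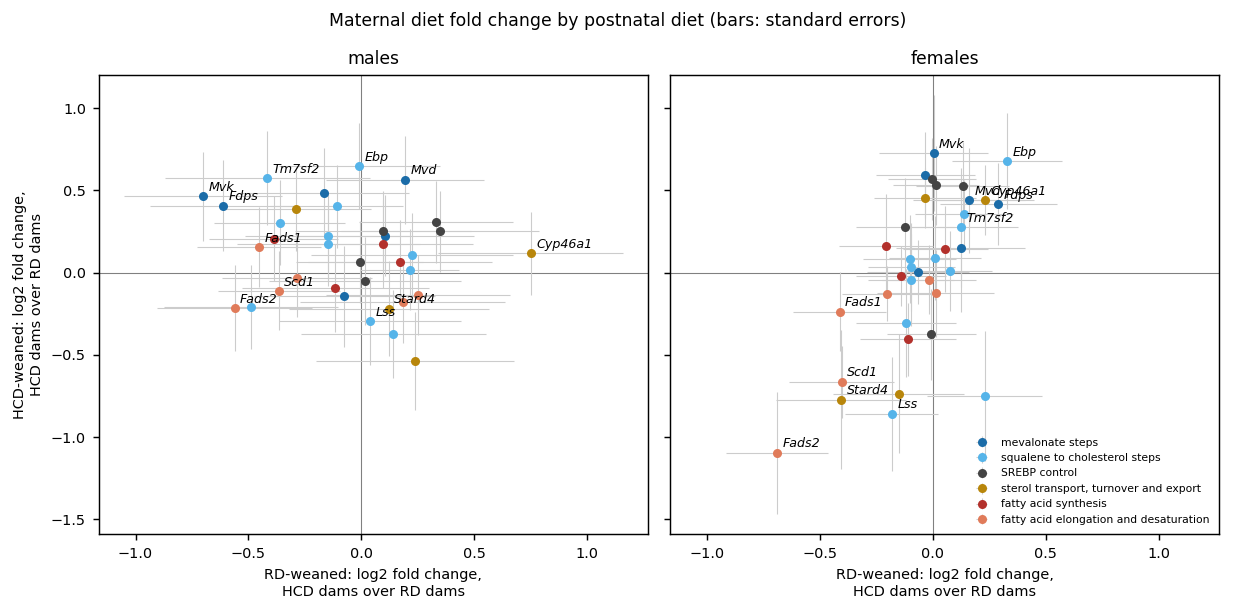
Log2 fold change of HCD dams over RD dams in HCD-weaned offspring (vertical axis) against RD-weaned offspring (horizontal axis) for each gene, in males and females; bars are standard errors from the authors' deposited tables. Mvk (0.46 against -0.70) and Fdps (0.41 against -0.61) lie in the upper left of the male panel, and Fads2 (-1.09 against -0.69) lies lowest in the female panel.

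Between the sexes, as males minus females, 0 of 36 members passed the test of the difference after HCD weaning, where 0% of 14947 genes did, and 0 of 33 after RD weaning, where 0.00791% of 12636 genes did. At an unadjusted p under 0.05 there were 0 of 36 members after HCD weaning (0.642% of all genes) and 1 of 33 after RD weaning (3.05% of all genes). That member was Fdps, with a difference of -0.90 (95% interval -1.71 to -0.09; Benjamini-Hochberg adjusted p = 0.999 from the authors' DESeq values). Fads2 differed by 0.88 after HCD weaning, with a 95% interval of -0.0059 to 1.77. Sex differences in the maternal diet value of these genes were therefore not detectable at this precision. The median standard error of a fold change within a single comparison, over all genes tested, was between 0.25 and 0.40 in the authors' deposited tables. The standard error of a difference combines those of both comparisons and is larger.

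Mean levels of the genes were close between the 4 tables, which the authors normalized separately and which were compared without a test. In CPM per kilobase of transcript, Apoe ranged from 2563 to 2901, Scd2 from 324 to 449, Fads1 from 104 to 117, Scd1 from 89.8 to 114, Cyp46a1 from 65.9 to 80.3, Hmgcs1 from 48.1 to 60.4, Fads2 from 32.3 to 49.5 and Idi1 from 0.672 to 1.42. On that scale Apoe stood far above the synthesis genes in each table and Idi1 below the others named here. Of the 36 genes, 20 had their highest level in the RD-weaned male table. The ratio of the highest to the lowest level was largest for Idi1 (2.12), Fasn (1.78), Abca1 (1.68), Nsdhl (1.59) and Fads2 (1.53). In males 12 of 36 genes had a higher level in the HCD-weaned than in the RD-weaned table, and in females 23 of 36. These counts of levels were not made over all genes, so they cannot be read as particular to the 36.

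**Figure D5:**
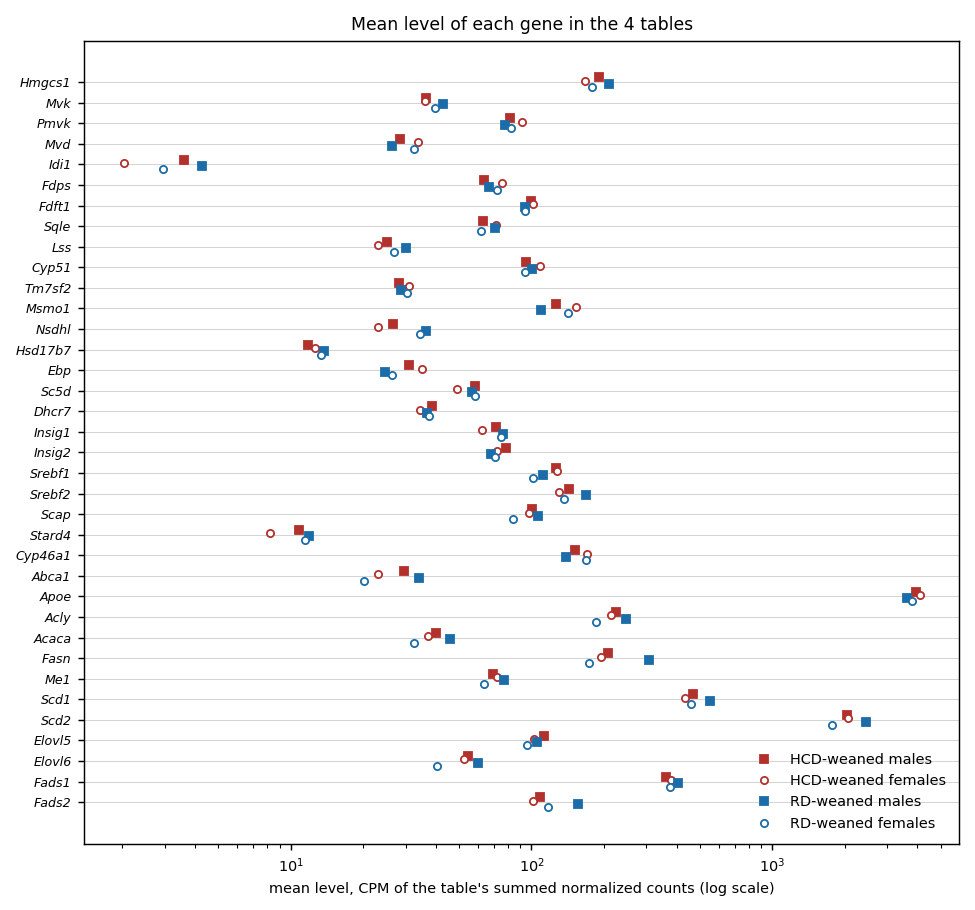
Mean level of each of the 36 genes in CPM, the share of the table's summed mean normalized counts (log scale), in HCD-weaned males and females and in RD-weaned males and females. The 4 points of a gene lie within a ratio of 2.12, and levels of different genes are not scaled to length here.

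Other genes of the same pathways gave no call either. Of 16 further lipid synthesis genes 0 were called in any comparison (authors' DESeq test, adjusted p under 0.05), where between 0.0851% and 1.52% of all genes tested were. After HCD weaning, 2 of the 15 with an adjusted p in males and 4 of 15 in females had an unadjusted p under 0.05. Of all genes tested, 8.14% and 13.3% did so. After RD weaning there were 0 of 15 in males and 0 of 14 in females, where 4.3% and 6.16% of all genes did. Tecr, the reductase that ends each elongation cycle, stood at 0.65 ± 0.21 in HCD-weaned females (SE; adjusted p = 0.0734 in the authors' deposited DESeq table), opposite in sign to all 6 elongation and desaturation members there. Gpam, which starts glycerolipid synthesis, stood at -0.88 ± 0.42 and Ggps1, which makes geranylgeranyl diphosphate from farnesyl diphosphate, at -0.86 ± 0.33 in HCD-weaned females (SE, authors' deposited table). In HCD-weaned males Ggps1 stood at -0.72 ± 0.25 and the lipogenic cofactor gene Thrsp at 0.72 ± 0.26 (SE, authors' deposited table), so Ggps1 was negative where most mevalonate genes were positive. Of 14 further genes of sterol transport and LXR control 0 were called in any comparison. An unadjusted p under 0.05 by the authors' DESeq test was found in 0 of 14 in males and 1 of 14 in females after HCD weaning. The shares of all genes tested were 8.14% and 13.3%. RD-weaned offspring had 0 of 11 in males and 0 of 14 in females, where 4.3% and 6.16% of all genes did. The 1 gene was the lipoprotein gene Clu, with a log2 fold change of 0.52 and a standard error of 0.18. By that test Clu had an adjusted p of 0.1004.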

How the data were processed

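Stranded poly(A) RNA-seq of mouse hypothalamus was available for 25 samples in 8 groups. DESeq, with no version, and the build mm10 are named per the submitters' processing notes; the aligner and the counter, like the annotation, were not given in the sources used here. The authors' 4 deposited comparison tables were used. Their mean normalized count is a signal that is never negative, and their fold changes and standard errors are log2 values, per the file headers. The Wald statistic in the deposited tables is a score equal to the fold change over its standard error. The p-value and adjusted p-value are as the authors deposited them. Genes with a mean under 10 have no adjusted p in the authors' tables. Fold changes look shrunken toward 0 by the authors' method, since no standard error exceeded 0.326, 0.447, 0.454 and 0.296 in the deposited tables of HCD-weaned males, HCD-weaned females, RD-weaned males and RD-weaned females, so folds may be understated and tests of differences can be conservative.

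The other 8 files hold 48 library columns under running numbers that match no label, and they were not used. For RD-weaned males they hold 6 libraries where the labels list 7 samples. Depth per sample is therefore unknown here. No label says whether mice of a group had different dams, so p-values measure only the spread among these samples.

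Members and lists were chosen with earlier results of these data known. Called genes have an adjusted p under 0.05. A difference between tables was divided by the root of its summed squared errors and tested against a normal distribution, adjusted over all genes by Benjamini-Hochberg. That script was tested on simulated data. Full values go to the 3 members of largest absolute fold change per comparison. Genes of the other lists were to be named where called, and otherwise up to 2 of largest absolute fold change per list and comparison, of which only some are given. Tecr, Clu, Agrp, and other genes or values named at an unadjusted p or for a single sign were chosen after their values were seen. Lengths, GC content and overlaps are from GENCODE M21 (GRCm38), found for 96.4% or more of genes tested, and promoters from RefSeq GRCm38.p6. The trend over length and GC was a polynomial of degree 3, fitted to the Wald statistic. What remained was multiplied by the standard error to give a log2 value. Tools were Python 3.11.15, pandas 2.3.3, numpy 2.4.6, scipy 1.17.1 and matplotlib 3.10.9.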

Additional observations from a re-analysis of the deposited data

How the results depend on the processing

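The count of members called was recomputed under 39 alternatives: a threshold of 0.10 on the adjusted p, all genes with a p, only genes with a mean of at least 100, the statistic divided by its robust spread, centred fold changes, the length and GC trend removed, and, for the differences, turned signs of the RD-weaned tables. It stayed at 0 in 37 of them. For the sex difference after RD weaning, turning both comparisons leaves every p as it was, so that count could not move. Few genes of any kind were called in the main setting, between 0% and 1.52% of all genes tested. With an adjusted p under 0.10 the count was 1 in HCD-weaned females, where Scd1 stood at -0.66 (adjusted p = 0.0954 in the authors' DESeq table), and 450 of 15043 genes, or 2.99%, were called there. With the sign of the RD-weaned tables turned, the count of the female difference by postnatal diet was 1, Fads2 at -1.78 (adjusted p = 0.0118 from the authors' DESeq values), by construction the sum of 2 negative values, and 186 of 14603 genes, or 1.27%, were called, against 1 without the turn. For single named members, 24 values recomputed with centred fold changes or with the length and GC trend removed kept their direction. Among them the value of Mvd in HCD-weaned males moved by over 1.5 times, to 0.35 with the trend removed, against 0.57 in the authors' deposited table. Centring shifted a value by at most 0.0388, where the smallest absolute named value was 0.406, so it could not turn a sign. Only removal of the trend could have done so. The other alternatives leave a fold change as it is.

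No paired analysis was possible because the library columns carry no sample name. For the same reason edgeR, DESeq2, other size factors and leaving out libraries were not run. Dependence on a single library was not tested. The RD-weaned male table had the fewest counts and the largest median standard error, 0.40, so small differences were least detectable there.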
